A study of Homo sapiens with 4 samples.

Results

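Kinetochore and spindle checkpoint genes were examined in MDA-MB-231 cells, an established triple-negative breast cancer line of mesenchymal character. The 2 vehicle libraries came from cells given vehicle control, and the 2 MGH-CP1 libraries from cells given the compound at 10 µM, both for 24 h. MGH-CP1 is named in the series title as blocking palmitoylation of TEAD, the DNA-binding partner of YAP and TAZ, and the comparison shows how transcript levels differ after exposure to it. All 4 libraries are poly(A) RNA from this single line, and the labels do not say whether replicates were separate cultures. P-values therefore rest on library-to-library spread alone, and that spread could be technical. The members were the rows of the authors' FPKM table whose symbol is on a list of 40 names, and 39 of 48162 listed genes matched. The fortieth name, CENPC, is listed under the older symbol CENPC1 and was found by its identifier, so it is described beside the others and counted apart.

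The kinetochore is the protein platform that forms on centromeric chromatin and holds each chromosome to spindle microtubules. Its base is chromatin that carries the histone variant CENP-A, on which a constitutive network of CENP proteins sits. The KMN network (KNL1, MIS12 and NDC80 complexes) binds that base and grips the microtubule. Where attachment fails, checkpoint proteins gather there and restrain CDC20, the activator of the ubiquitin ligase that starts anaphase. Many of these genes are transcribed mostly in G2 and mitosis, so their mRNA is abundant in dividing cells and scarce in resting ones.

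Many promoters of cell cycle genes carry short shared elements, and promoter sequences are shown here because the members moved together. The cell cycle genes homology region (CHR) was searched as TTTGAA or TTCGAA, the CCAAT box as CCAAT, an E2F site as TTTCCCGC or TTTGGCGC, and a TEAD site as GGAATG, each on both strands. RefSeq promoter windows (GRCh38.p14, 250 bases before to 50 after the start) were matched for 30 of the 39 members. They were not matched for BIRC5, BUB3, CASC5, CENPH, CENPJ, CENPL, CENPM, KNTC1 and TTK. The 120 bases before the start are printed below for 7 members with CHR letters there and for 3 without, the latter being members that changed little. Capitals mark CHR and CCAAT letters on either strand, so a CCAAT box on the other strand reads ATTGG and a CHR reads TTCAAA. In CDCA8 the 2 elements share 1 base.
INCENP (chr11:62123891-62124010, plus strand): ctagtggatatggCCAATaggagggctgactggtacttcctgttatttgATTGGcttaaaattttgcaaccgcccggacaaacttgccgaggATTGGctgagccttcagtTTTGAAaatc
CDCA8 (chr1:37692396-37692515, plus strand): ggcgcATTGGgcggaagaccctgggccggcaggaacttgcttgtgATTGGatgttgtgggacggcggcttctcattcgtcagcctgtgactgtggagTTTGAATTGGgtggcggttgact
CDC20 (chr1:43358861-43358980, plus strand): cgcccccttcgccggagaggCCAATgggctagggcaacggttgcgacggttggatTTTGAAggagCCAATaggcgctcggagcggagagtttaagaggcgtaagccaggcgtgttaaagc
CENPA (chr2:26785936-26786055, plus strand): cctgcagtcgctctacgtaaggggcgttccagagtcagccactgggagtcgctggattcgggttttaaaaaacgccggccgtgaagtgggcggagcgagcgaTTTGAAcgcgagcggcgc
BUB1B (chr15:40160949-40161068, plus strand): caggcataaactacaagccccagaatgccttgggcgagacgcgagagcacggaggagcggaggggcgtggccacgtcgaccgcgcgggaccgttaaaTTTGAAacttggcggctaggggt
ZWINT (chr10:56361274-56361393, minus strand): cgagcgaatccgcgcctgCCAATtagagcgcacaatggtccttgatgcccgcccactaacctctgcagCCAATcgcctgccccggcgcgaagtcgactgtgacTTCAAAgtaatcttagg
HJURP (chr2:233854536-233854655, minus strand): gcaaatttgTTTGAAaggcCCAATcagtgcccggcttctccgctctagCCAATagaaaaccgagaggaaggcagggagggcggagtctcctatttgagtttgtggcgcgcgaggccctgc
CENPB (chr20:3786741-3786860, minus strand): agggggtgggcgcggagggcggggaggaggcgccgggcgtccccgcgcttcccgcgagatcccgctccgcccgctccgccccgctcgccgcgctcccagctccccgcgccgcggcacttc
MAD1L1 (chr7:2232946-2233065, minus strand): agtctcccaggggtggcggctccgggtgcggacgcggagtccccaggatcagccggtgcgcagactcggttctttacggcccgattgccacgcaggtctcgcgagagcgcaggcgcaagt
CENPT (chr16:67847694-67847813, minus strand): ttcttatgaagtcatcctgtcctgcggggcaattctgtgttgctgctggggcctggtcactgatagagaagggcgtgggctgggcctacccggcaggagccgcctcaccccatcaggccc

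CHR letters were present in 17 of the 30 matched members (56.7%), against 19.5% of the 27305 genes in the promoter table and 15.3% of the 9044 tested genes that matched it. In 15 of those 17 members a match lay within 50 bases of the start, a distance at which other genes were not examined. In INCENP it spanned bases -10 to -5, in CENPA -18 to -13, and in both CDCA8 and BUB1B -23 to -18. In CDC20 the nearest match lay at -65 to -60, and in HJURP it lay at -111 to -106. CCAAT letters were present in 20 members (66.7%), against 39.7% of all genes in the table and 43.4% of the tested genes. Both elements were held by 13 members. INCENP, CDCA8 and ZWINT each carried CCAAT boxes upstream of the CHR, as printed above. TEAD letters were present in 5 members (16.7%, against 16.7% of all genes and 14.9% of tested genes). E2F letters were present in 2 members (6.67%, against 2.75% of all genes and 4.79% of tested genes). A match is a run of letters and not a measured binding site. The printed members without a match were picked for their small changes, so no relation can be read from them. CHR letters were present in 16 of the 26 matched members that were lower with MGH-CP1 and in 1 of the 3 that did not pass, CENPW. CENPQ and CENPK, which had the largest falls, held CCAAT and TEAD letters but no CHR letters. DSN1 and CENPI held none of the 4 elements and fell by 1.19 and 1.07 on the log2 scale.

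**Figure D1:**
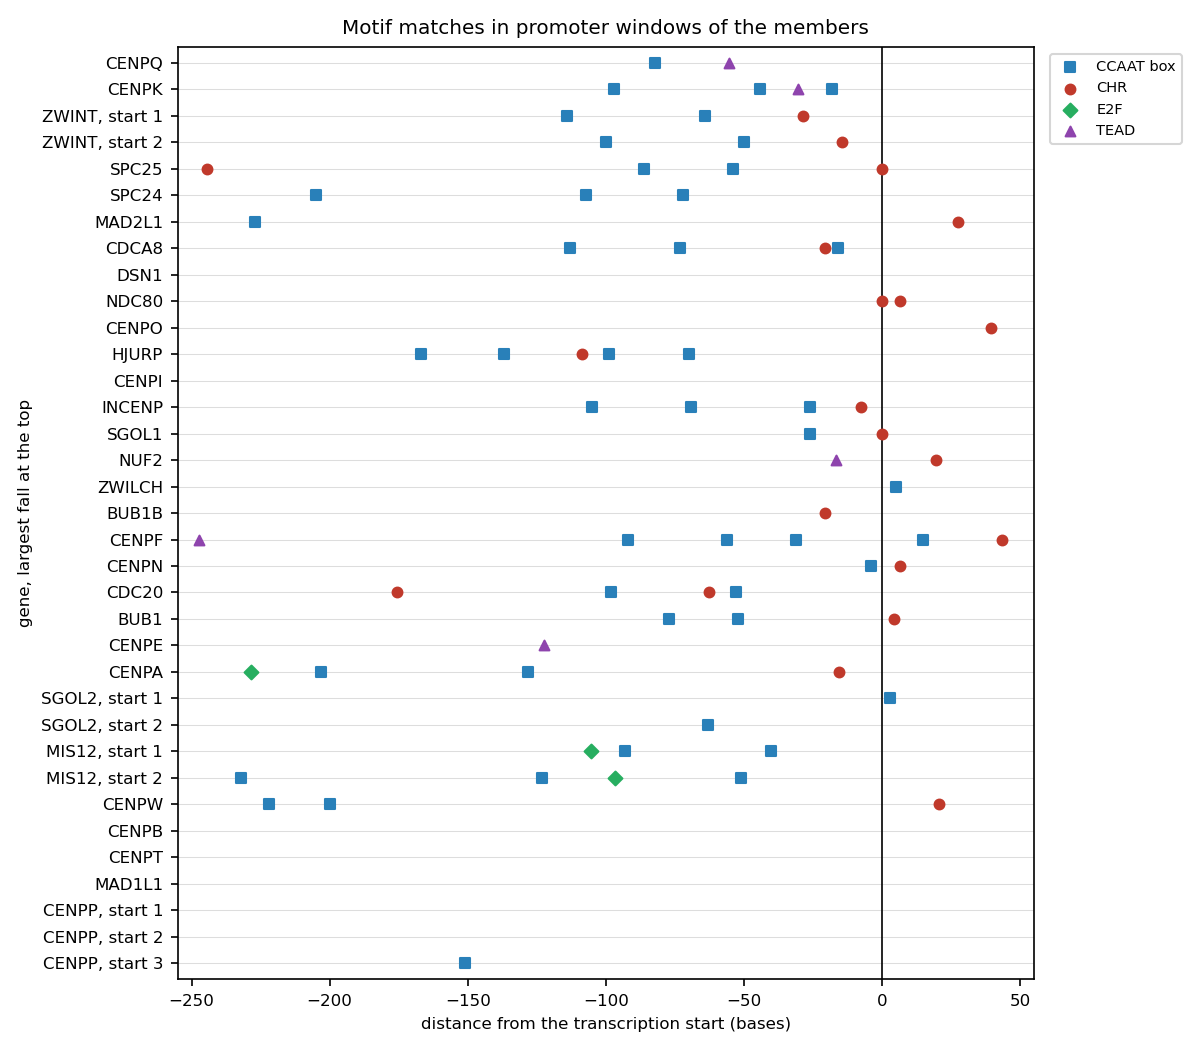
Position of motif matches in the promoter windows of the 30 matched members, ordered by log2 fold change with the largest fall at the top and the untested CENPP at the bottom; the horizontal axis is distance from the transcription start in bases, each symbol is 1 match, and a member with several annotated starts has a row for each. CHR matches gather around the start, within 50 bases of it in 15 of 17 members that have one, and the windows of CENPB, CENPT, MAD1L1, DSN1 and CENPI hold no match. Other genes were not examined at that distance.

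Totals over all listed genes ran from 16790645 to 18485701 reads per library. Of the line's own markers VIM, CD44 and AXL were present, and each separated by group. Such separation was common, seen for 39.4% of all genes tested with MGH-CP1 lower and for 34.7% with it higher. VIM read 171 and 148 FPKM in vehicle and 199 and 193 with MGH-CP1, CD44 277 and 271 and then 329 and 343, and AXL 546 and 559 and then 279 and 297. ESR1 and PGR were at or near 0. CDH1 read 0.521 and 0.489 FPKM in vehicle and 0.759 and 0.895 with MGH-CP1, and SPARC, also expected of the line, stayed at 0.0322 to 0.453 FPKM. FPKM divides fragments by gene length and by library depth, so levels can be compared between genes. Summed over 4 markers each, fibroblast genes gave 3.17 to 4.16 FPKM, mostly COL1A1, and immune genes 3.26 and 3.36 FPKM in vehicle and 3.20 and 2.99 with MGH-CP1, nearly all CD14. PTPRC, CD3E and CD79A were each below 0.1 FPKM in every library. Summed over 3 endothelial markers the level was 0.457 to 0.888 FPKM, and the fibroblast and endothelial sums overlapped between groups. The part of these markers in the results was not tested. Tested members had between 84 and 9251 reads in a library.

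Transcripts of the kinetochore were broadly lower with MGH-CP1. Added over the 39 members, their FPKM came to 925 and 924 in the vehicle libraries and to 494 and 505 in the MGH-CP1 libraries. With limma, 35 of 38 tested members were lower at an adjusted p under 0.05, where 25.1% of the 11790 genes tested were lower. No member was called higher, against 20% of all genes, nor did any pass in that direction at an unadjusted p under 0.05 or with voom. The median log2 fold change was -0.98 for the members and -0.02 for all genes tested, on the log2(FPKM + 1) scale. A log2 fold change of -1 or below was reached by 17 members, against 2.34% of all genes. Both MGH-CP1 values lay below both vehicle values for 37 of 38 tested members (39.4% of all genes). Bulk RNA cannot tell fewer cells in G2 and mitosis from less of these mRNAs in each cell.

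**Figure D2:**
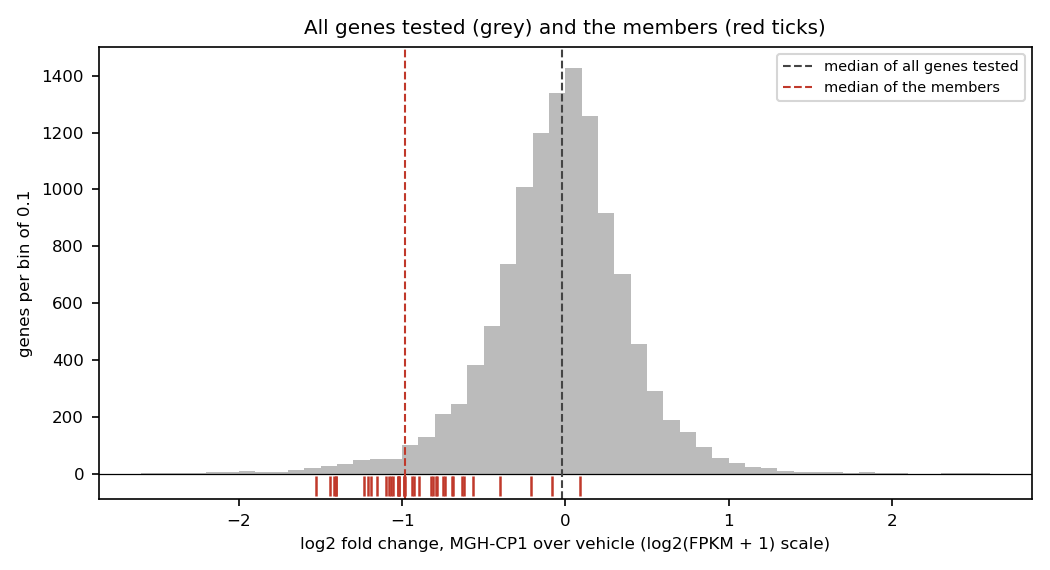
Histogram of log2 fold changes, MGH-CP1 over vehicle, for the 11790 genes tested (grey, genes per bin) with each of the 38 tested members as a red tick under the axis and dashed lines at both medians. The members' median of -0.98 lies in the left tail of the grey distribution, whose median is -0.02.

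**Figure D3:**
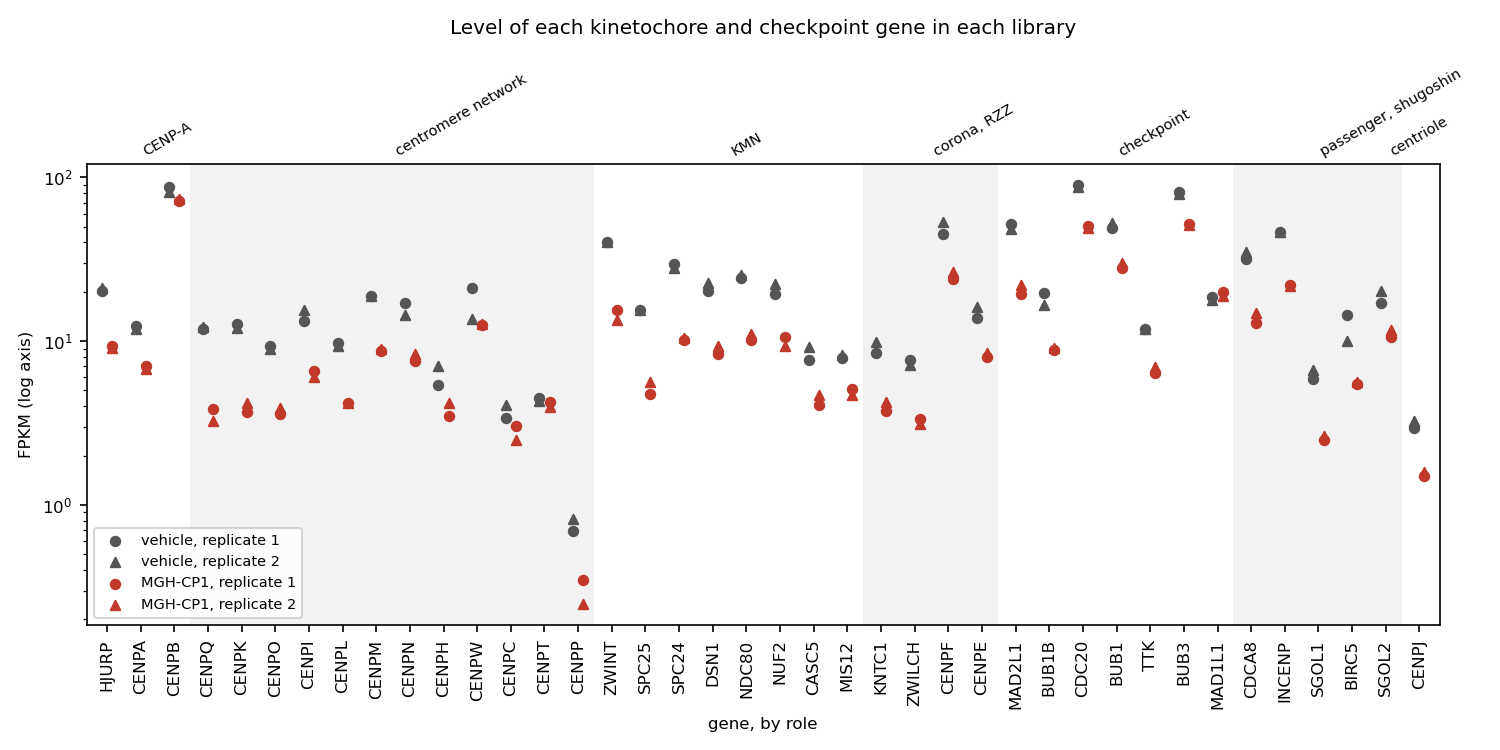
FPKM (log axis) of each member and of CENPC in every library, ordered by role, with vehicle in grey and MGH-CP1 in red and the symbol shape giving the replicate. Red symbols sit below grey ones for nearly every gene, and those of MAD1L1, CENPT, CENPB and CENPW come closest to them.

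All 3 genes of centromeric chromatin were lower (25.1% of all genes tested), with a median log2 fold change of -0.73. HJURP, the chaperone that deposits CENP-A (ENSG00000123485, hg19 chromosome 2, 234742062 to 234763212, minus strand), read 20.1 and 21.1 FPKM in vehicle and 9.29 and 9.11 with MGH-CP1. Its groups were far apart and its log2 fold change was -1.08 ± 0.07 (SE; limma, adjusted p = 4.6e-05). CENPA, the centromeric histone variant (ENSG00000115163, chromosome 2, 26987157 to 27023935, plus strand), read 12.4 and 11.9 FPKM in vehicle and 7.09 and 6.74 with MGH-CP1, a log2 fold change of -0.73 ± 0.07. The ratio of HJURP to CENPA in FPKM was 1.61 and 1.78 in vehicle and 1.31 and 1.35 with MGH-CP1. With 2 libraries against 2, an exact two-sided permutation test of a ratio cannot go below p = 0.333, and that was the value here. CENPA overlaps SLC35F6 on the same strand, at 13.9 FPKM, so part of its value is uncertain. CENPB binds a motif in centromeric satellite DNA and was the most abundant of the 3, at 87.6 and 81.6 FPKM in vehicle. It read 71.6 and 74.0 FPKM with MGH-CP1, a small fall (log2 fold change -0.21 ± 0.06; limma, adjusted p = 0.024). The CENPB call was lost with no filter on low values, with upper-quartile scaling and on leaving out MGH-CP1 replicate 1 or 2, where the adjusted p of limma reached 0.174 and 0.0983.

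The constitutive centromere network held both the largest fall and some of the smallest differences. Of its 11 members 10 were tested, 8 were lower (25.1% of all genes tested) and 2 were not called. The median log2 fold change was -1.02. CENPQ, of the CENP-O group, had the largest fall of any member, from 11.9 and 12.3 FPKM to 3.84 and 3.27 (log2 fold change -1.53 ± 0.09; limma, adjusted p = 4.2e-05), which left 29.4% of its vehicle mean. CENPO, its partner, kept 40.8%, going from 9.36 and 8.98 to 3.60 and 3.89 FPKM. CENPK, of the CENP-H group, went from 12.8 and 12.1 to 3.70 and 4.18 FPKM (log2 fold change -1.44 ± 0.09), the second largest fall in the network. CENPI and CENPM, of the same group, kept 44.0% and 46.5% of their vehicle means. CENPH was the least sure of these, with 5.37 and 7.07 FPKM in vehicle and 3.50 and 4.20 with MGH-CP1 on 84 to 165 reads (log2 fold change -0.57 ± 0.14). Without MGH-CP1 replicate 1 its call was lost at a difference of -0.46 (limma, adjusted p = 0.0638). With no filter it was also lost, and the adjusted p of 0.0973 there was the largest that any alternative gave. CENPL and CENPN, which form the pair that reads CENP-A chromatin, kept 43.7% and 50.6%. CENPN shares its locus with a transcript inside its intron at 12.5 FPKM, and CENPO overlaps ADCY3 on the opposite strand (9.20 FPKM), so both values are uncertain.

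CENPT, CENPW and CENPC kept the largest shares of vehicle in that network. CENPT has a histone fold and recruits the NDC80 complex directly (ENSG00000102901, chromosome 16, 67862060 to 67881714, minus strand). It read 4.46 and 4.29 FPKM in vehicle and 4.22 and 3.95 with MGH-CP1. These groups almost touched, and the log2 difference of -0.08 did not pass (limma, adjusted p = 0.504, 95% interval -0.29 to 0.13). Its value is uncertain because NUTF2 (14.3 FPKM) and THAP11 (10.3 FPKM) overlap it on the other strand. CENPW, the histone-fold partner of CENPT, read 21.1 and 13.7 FPKM in vehicle and 12.6 and 12.7 with MGH-CP1. The vehicle libraries differed from each other by more than the second of them did from treated cells, and CENPW did not pass (log2 difference -0.40, 95% interval -0.80 to -0.01; limma, adjusted p = 0.0904). Without vehicle replicate 2 the CENPW difference was -0.70 and passed (limma, adjusted p = 5.5e-05), and without vehicle replicate 1 it was -0.11 and did not (limma, adjusted p = 0.295). With no filter its adjusted p was 0.33, the top of the range. CENPC, the other link from chromatin to the KMN network, read 3.41 and 4.05 FPKM in vehicle and 3.02 and 2.50 with MGH-CP1 (log2 difference -0.33; limma, adjusted p = 0.0592). It was called lower with voom (adjusted p = 0.0257) and without vehicle replicate 1 (limma, adjusted p = 0.028), and its adjusted p reached 0.286 without MGH-CP1 replicate 2. CENPQ exceeded CENPT 2.67-fold and 2.86-fold in the vehicle libraries, whereas with MGH-CP1 it stood at 0.908 and 0.827 of the CENPT level. CENPP, of the CENP-O group, lay below the limit for testing, at 0.691 and 0.815 FPKM in vehicle and 0.350 and 0.249 with MGH-CP1.

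All 8 members of the KMN network were lower (25.1% of all genes tested), with a median log2 fold change of -1.17. Their summed FPKM went from 165 and 171 to 68.6 and 68.5. Within the NDC80 complex, the rod that binds microtubules, NDC80 itself (ENSG00000080986, chromosome 18, 2571510 to 2616634, plus strand) read 24.4 and 25.3 FPKM in vehicle and 10.2 and 11.0 with MGH-CP1. Its log2 fold change was -1.16 ± 0.07 (limma, adjusted p = 4.2e-05). NUF2, which pairs with NDC80 at the microtubule end, kept 48.0% of its vehicle mean, from 19.3 and 22.2 to 10.6 and 9.28 FPKM. SPC24 and SPC25, the pair at the centromere end, fell further. SPC24 went from 29.6 and 28.0 to 10.1 and 10.4 FPKM and SPC25 from 15.5 and 15.5 to 4.78 and 5.66 FPKM (log2 fold changes -1.40 ± 0.06 and -1.41 ± 0.09). Relative to NDC80, SPC25 stood at 0.633 and 0.612 in vehicle and at 0.469 and 0.512 with MGH-CP1. The NUF2 to NDC80 ratio overlapped between groups, at 0.791 and 0.876 in vehicle and 1.04 and 0.840 with MGH-CP1.

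ZWINT, which binds KNL1, kept 36.0% of its vehicle mean, close to the 35.6% of SPC24 and the 33.7% of SPC25, and went from 40.1 and 40.2 to 15.5 and 13.4 FPKM (log2 fold change -1.42 ± 0.08). CASC5, the older symbol of KNL1, the scaffold on which BUB proteins assemble (ENSG00000137812, chromosome 15, 40886218 to 40956540, plus strand), fell less, from 7.64 and 9.26 to 4.05 and 4.71 FPKM (log2 fold change -0.81 ± 0.11; limma, adjusted p = 0.00122). In the MIS12 complex, DSN1 kept 41.1% of its vehicle mean and MIS12 kept 60.7%, at 7.84 and 8.20 FPKM in vehicle and 5.08 and 4.66 with MGH-CP1. The other subunits of that complex are not members and are named here after their values were seen. NSL1 read 9.13 and 9.02 FPKM in vehicle and 6.74 and 8.40 with MGH-CP1, and PMF1 read 9.62 and 10.3 and then 9.15 and 9.16 FPKM. Neither passed (limma, adjusted p = 0.0979 and 0.27), so the 4 subunits of 1 complex kept between 41.1% and 92.1% of their vehicle means.

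**Figure D4:**
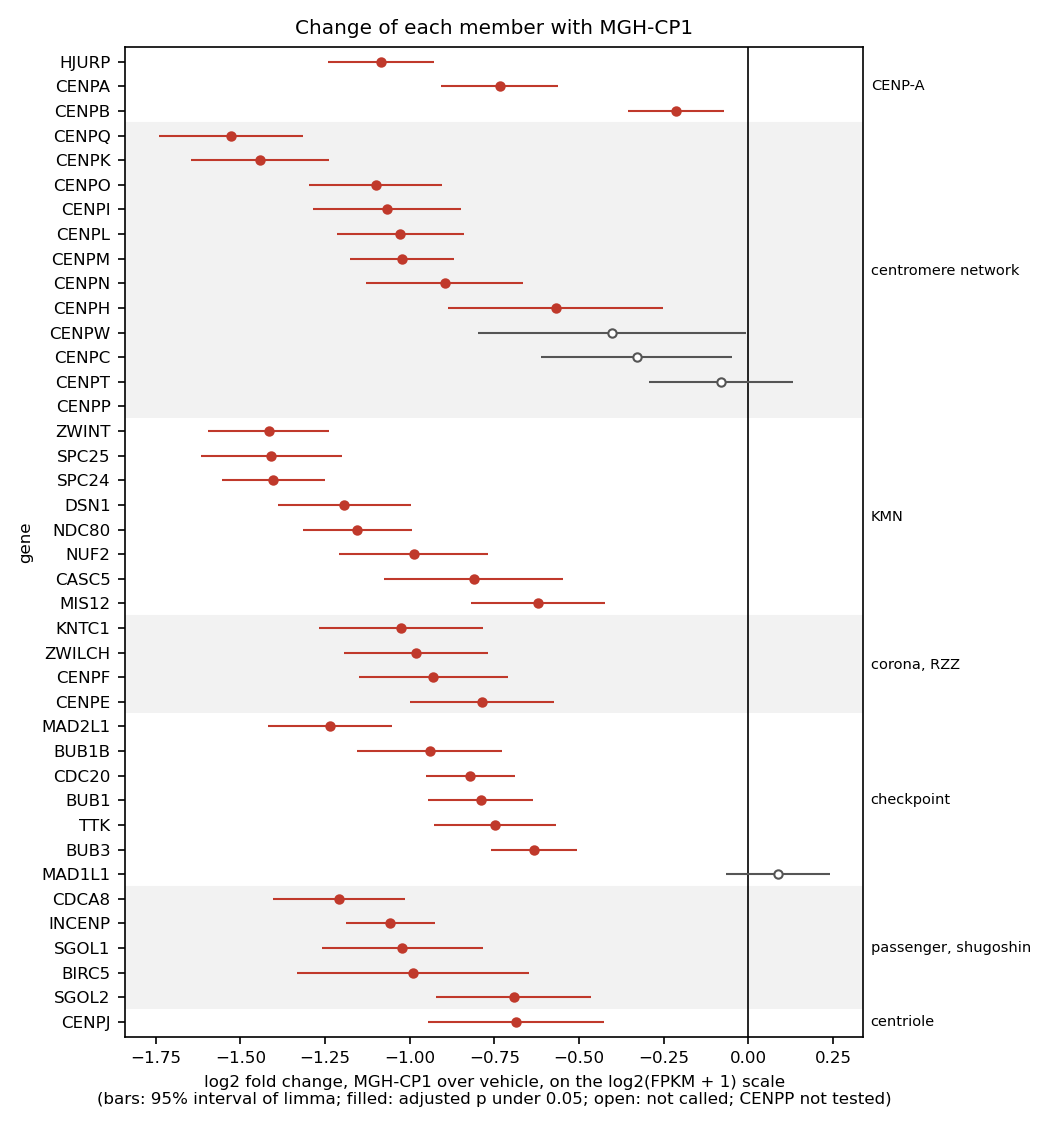
Log2 fold change of each tested member and of CENPC, MGH-CP1 over vehicle on the log2(FPKM + 1) scale, by role, with 95% intervals from limma; filled points are called at an adjusted p under 0.05 and open points are not. The intervals of CENPQ and CENPK end at -1.31 and -1.24, whereas those of MAD1L1 and CENPT include 0.

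Genes of the outer corona, which captures microtubules before stable attachment, fell together. Of its 4 members 4 were lower (25.1% of all genes tested), with a median log2 fold change of -0.96. CENPF, a large coiled-coil protein that peaks in G2 and was the best covered member, read 44.8 and 53.5 FPKM in vehicle and 24.0 and 26.5 with MGH-CP1 (log2 fold change -0.93 ± 0.09; limma, adjusted p = 0.000289). CENPE, the kinesin that carries chromosomes to the spindle equator, read 13.8 and 16.2 and then 7.996 and 8.48 FPKM (log2 fold change -0.79 ± 0.09). KNTC1 and ZWILCH encode subunits of the ROD, ZW10 and Zwilch (RZZ) complex, which brings dynein and the MAD1 and MAD2 proteins to kinetochores. KNTC1 went from 8.51 and 9.88 to 3.73 and 4.28 FPKM and ZWILCH from 7.61 and 7.10 to 3.36 and 3.10 FPKM, so both kept close to the same share of vehicle (43.5% and 44.0%). ZWILCH overlaps RPL4, at 248 FPKM on the opposite strand, and without strand information its value is uncertain. The third subunit, ZW10, which is not a member, kept 67.6%.

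Of 7 checkpoint genes 6 were lower (25.1% of all genes tested), with a median log2 fold change of -0.79 over the group. The exception was MAD1L1. It encodes the kinetochore-bound MAD1 protein that templates MAD2 activation (ENSG00000002822, chromosome 7, 1855429 to 2272878, minus strand). MAD1L1 read 18.5 and 17.9 FPKM in vehicle and 20.05 and 18.8 with MGH-CP1. Both treated values lay just above both vehicle values, and the log2 difference of 0.09 did not pass (limma, adjusted p = 0.312, 95% interval -0.07 to 0.24). MAD2L1, which encodes its partner MAD2 (ENSG00000164109, chromosome 4, 120980577 to 120988229, minus strand), went from 51.8 and 48.3 to 19.3 and 22.1 FPKM. This was the largest fall of the checkpoint group (log2 fold change -1.24 ± 0.08; limma, adjusted p = 4.9e-05). The ratio of MAD2L1 to MAD1L1 mRNA was therefore 2.81 and 2.69 in vehicle and 0.964 and 1.18 with MGH-CP1. The exact permutation p was again 0.333, the smallest possible.

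The other genes of the mitotic checkpoint complex had smaller fold changes than MAD2L1. BUB1B, which encodes BUBR1 (ENSG00000156970, chromosome 15, 40453224 to 40513337, plus strand), went from 19.8 and 16.6 to 8.77 and 9.13 FPKM (log2 fold change -0.94 ± 0.09). CDC20, the target of the checkpoint (ENSG00000117399, chromosome 1, 43824626 to 43828874, plus strand), was the most abundant member in vehicle, at 90.1 and 86.9 FPKM. It read 50.6 and 48.7 FPKM with MGH-CP1 (log2 fold change -0.82 ± 0.06; limma, adjusted p = 6.3e-05). CDC20 exceeded MAD2L1 1.74-fold and 1.8-fold in vehicle and 2.62-fold and 2.20-fold with MGH-CP1. BUB3, which docks BUB1 and BUBR1 on KNL1, kept the largest share of the called checkpoint genes, 64.0%, from 81.5 and 78.9 to 51.6 and 51.1 FPKM. The kinases BUB1 and TTK kept nearly the same share. BUB1, which marks centromeric histone H2A, went from 48.8 and 52.7 to 28.0 and 29.9 FPKM and kept 57.0%. TTK, the MPS1 kinase that starts checkpoint signalling, went from 11.9 and 11.9 to 6.38 and 6.996 FPKM and kept 56.2%.

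The chromosomal passenger complex corrects wrong attachments through the kinase Aurora B, and shugoshins protect centromeric cohesion. All 5 members of these groups were lower (25.1% of all genes tested), with a median log2 fold change of -1.02. INCENP, the scaffold of the complex, had close replicates, at 46.3 and 46.2 FPKM in vehicle and 21.9 and 21.5 with MGH-CP1 (log2 fold change -1.06 ± 0.06; limma, adjusted p = 2.9e-05). CDCA8, which encodes borealin, went from 31.7 and 34.8 to 12.9 and 14.8 FPKM (log2 fold change -1.21 ± 0.08). BIRC5, which encodes survivin (ENSG00000089685, chromosome 17, 76210267 to 76221717, plus strand), read 14.3 and 10.0 FPKM in vehicle and 5.46 and 5.63 with MGH-CP1. Its vehicle values were far apart, but both stood above the treated ones (log2 fold change -0.99 ± 0.15; limma, adjusted p = 0.00159). AURKB, the kinase of the complex and not a member, went from 34.6 and 33.2 to 15.3 and 13.5 FPKM, so the 4 genes of the complex kept 41.6% to 46.9% of their vehicle means. SGOL1, which shields cohesin in mitosis, read 5.83 and 6.70 and then 2.50 and 2.64 FPKM (log2 fold change -1.02 ± 0.10), and SGOL2 kept 59.6%. CENPJ acts in centriole growth and not at kinetochores, despite its name. It was expressed at a low level, 2.94 and 3.26 FPKM in vehicle, and read 1.503 and 1.59 with MGH-CP1, which left 49.9% of its vehicle mean. At this level the log2(FPKM + 1) scale understates its log2 fold change of -0.69 ± 0.11, and voom gave -0.997.

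The vehicle libraries differed from each other with gene length, and several members show this. The longest ones, CENPF, CASC5, CENPE and KNTC1, were lower in vehicle replicate 1 than in replicate 2, by 0.19 to 0.25 on the log2 scale. CENPW, the shortest, was higher in replicate 1 by 0.59. Short members did not all follow, as CENPH (1389 bases) stood at -0.34 and CENPM (1002 bases) at -0.01. BIRC5, which is not among the shortest (2711 bases), was higher in replicate 1 by 0.48. Over the 38 tested members the Spearman correlation of this replicate difference with length was -0.313, and over all genes tested it was -0.337, as a description across genes that share the same libraries. Between the MGH-CP1 libraries the members gave -0.0907 and all genes tested -0.232. The median size of the replicate difference was 0.0950 in vehicle and 0.0912 with MGH-CP1, well below the members' median change of -0.98. Counts of lower members were 35 without vehicle replicate 1 and 36 without vehicle replicate 2.

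**Figure D5:**
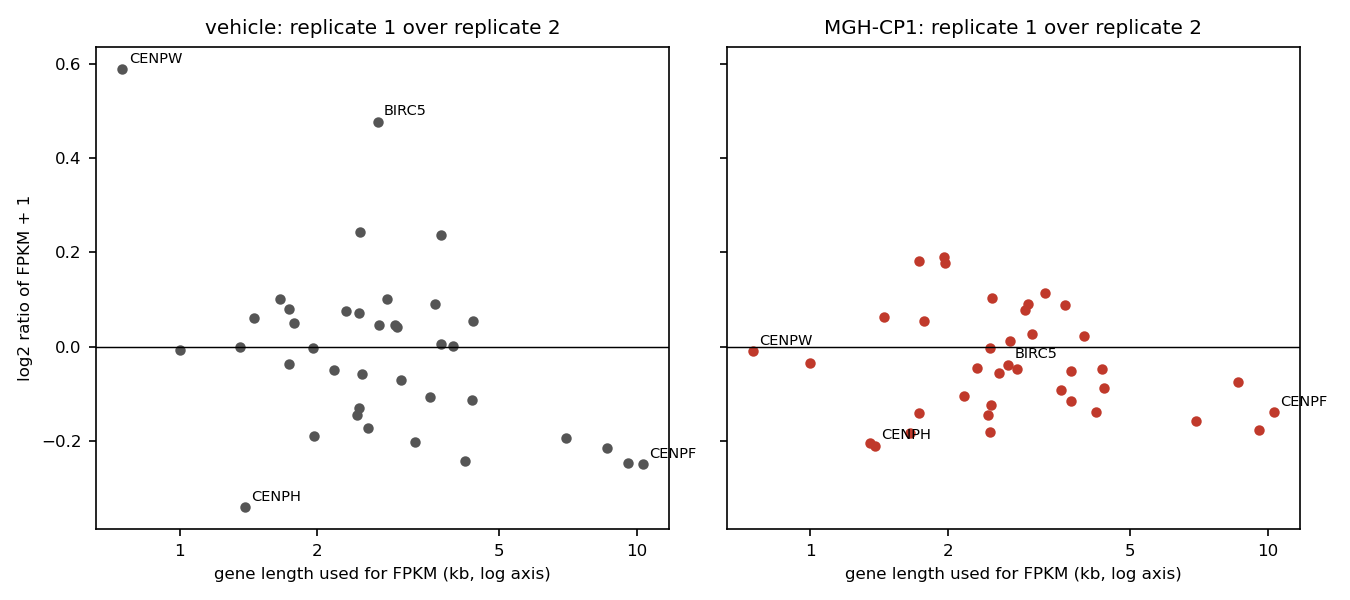
Log2 ratio of replicate 1 to replicate 2 (FPKM + 1) against the gene length used for FPKM (kb, log axis) for the 38 tested members, vehicle on the left and MGH-CP1 on the right. In vehicle, CENPW and BIRC5 stand highest at 0.59 and 0.48, and the 4 longest genes lie between -0.25 and -0.19.

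Of 29 tested kinetochore genes on a second list of 30, 21 were lower and none higher (25.1% and 20% of all genes tested), with a median log2 fold change of -0.77. In the higher direction 1 gene, NDEL1, passed at an unadjusted p under 0.05 with limma and with voom. CENPU, the CENP-Q partner that recruits PLK1, went from 28.4 and 29.0 to 9.12 and 10.1 FPKM (log2 fold change -1.49 ± 0.07; limma, adjusted p = 2e-05). GSG2, the haspin kinase that positions the passenger complex, went from 9.09 and 9.67 to 3.10 and 2.68 FPKM. SPDL1, the RZZ-bound dynein adaptor Spindly, went from 23.6 and 26.5 to 9.49 and 9.02 FPKM. The mitotic kinase PLK1 and the kinesin KIF2C fell by 0.81 and 0.84 on the log2 scale. The remaining partners of CENPT and CENPW, named after their values were seen, kept 73.8% (CENPS) and 54.4% (CENPX) of vehicle.

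The checkpoint acts on the anaphase-promoting complex. Of 20 genes of that complex and its regulators 12 were lower and 1 was higher (25.1% and 20% of all genes tested), with a median log2 fold change of -0.28. FBXO5, the inhibitor EMI1, fell furthest, from 13.3 and 15.3 to 3.87 and 3.47 FPKM (log2 fold change -1.71 ± 0.10). UBE2C, its ubiquitin-conjugating enzyme, went from 60.5 and 56.3 to 35.1 and 27.8 FPKM, and ESPL1, which encodes separase, from 11.1 and 12.0 to 5.75 and 5.91 FPKM. ANAPC2, a core subunit, read 19.7 and 19.9 FPKM in vehicle and 23.7 and 23.4 with MGH-CP1 (log2 fold change 0.24 ± 0.06; limma, adjusted p = 0.0138). That call was lost without either MGH-CP1 library (limma, adjusted p = 0.107 and 0.0884). For CENPJ the fitting comparison is the centriole, where 14 of 19 genes were lower and none higher (25.1% and 20% of all genes tested). None was higher there at an unadjusted p under 0.05 or with voom. The median there was -0.45, and PLK4, the kinase that starts centriole duplication, went from 11.0 and 13.0 to 4.15 and 4.50 FPKM. STIL, its partner, went from 13.9 and 14.6 to 5.01 and 5.53 FPKM, and POC1A from 24.8 and 26.0 to 12.8 and 13.7 FPKM. The count of 14 was 8 without MGH-CP1 replicate 1. These lists were drawn up with results of these libraries known and give no independent support.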

How the data were processed

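RNA from 4 libraries was analysed, 2 vehicle and 2 MGH-CP1. The authors deposited 1 table of FPKM values, with gene coordinates and lengths. CASAVA 1.8, STAR and hg19 are named in the submitters' processing notes. How reads were counted, and whether by strand, is not given in the sources used here. Multiplied by gene length, all values above 0 were whole multiples of 1 step per library (tolerance 0.001), which gave read totals. Values were put on a log2(FPKM + 1) scale, only genes averaging 1 FPKM or more entered, and limma 3.58.1 (R 4.3.3, trended prior) was fitted on all 11790 with group as its only term. Benjamini-Hochberg adjustment ran over all of them, two-sided. The method was run on simulated counts with the same set spread for every gene and no trend with gene length. That run cannot show how well the p-values hold in these libraries. Tables and plots used Python 3.11.15, pandas 2.3.3 and matplotlib 3.10.9. Alternatives were other pseudocounts, filters and scalings, voom on the recovered reads, a replicate block and leaving out each library. Genes named in full were members called higher or not called, the 2 largest changes per role and 16 fixed members, plus the 3 largest changes in each other list and those called against its direction. The members and lists were chosen with earlier results of these data known. Expression of PECAM1 was not analysed here. Promoter letters came from RefSeq windows on GRCh38.p14, another build than hg19. They were joined by the reference gene name of each gene identifier, not by position.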

Additional observations from a re-analysis of the deposited data

How the results depend on the processing

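The count of lower members was 35 and ranged from 33 to 36 over the alternatives that left out a library, and from 33 to 35 over the others. No member was called higher in any of them. The number tested changed with the filter: 33 of 39 members were lower with no filter and 33 of 35 at a mean of at least 5 FPKM, against 35 of 38. The members' median log2 fold change was -1.07 with a pseudocount of 0.1 and also -1.07 with voom. It was -0.96 with median-of-ratios scaling and -0.92 with upper-quartile scaling, and it ran from -0.98 to -0.95 without each library in turn. Among the 28 members with no overlapping gene at 0.1 of their level or more, a choice made after seeing the data, 26 were lower. Genes higher among all those tested numbered 1568 with no filter, and 1460 to 2556 without each library, the low end without MGH-CP1 replicate 2 and 1524 without replicate 1. With no filter 24640 genes were tested, against 11790, so that count is not on the same base. Upper-quartile scaling gave 2413 lower and 3004 higher genes over all tested, against 2956 and 2355 as scaled by the authors, and 34 lower members. Centriole and centrosome genes lower numbered 5 with no filter and 8 at a mean of at least 5 FPKM, where only 11 were tested, and 8 to 13 without each library. Higher genes of the anaphase-promoting complex numbered 2 with median-of-ratios scaling and 2 with upper-quartile scaling, and 0 to 1 without each library. Other kinetochore genes higher numbered 2 with upper-quartile scaling and 0 to 1 without each library. In the part of the promoter window nearer to the start, CHR letters were present in 17 members, CCAAT in 16, TEAD in 4 and E2F in 1, against 17, 20, 5 and 2 in the whole window. Where these differ, the cause was not tested. In that nearer part, CHR letters were held by 56.7% of matched members and 7.96% of matched tested genes, and CCAAT by 53.3% and 32.6%. The shares were 13.3% and 8.27% for TEAD, and 3.33% and 2.85% for E2F. Replicate numbers were shared by both groups, and deviations of same-numbered libraries hardly correlated (0.0502 across 11790 genes). The difference of replicate 1 from replicate 2 still fell with gene length in both groups. Over all genes tested, its Spearman correlation with length was -0.337 in vehicle and -0.232 with MGH-CP1. With the replicate block 35 members were lower, as without it. CENPP, on 37 to 120 reads in a library, kept 39.7% of its vehicle mean but did not pass when tested with no filter, where its log2 difference was -0.43 (limma, adjusted p = 0.0572). The pseudocount of 1 understates the change of genes at such levels, and to a lesser degree that of members at a few FPKM. With voom the log2 fold change was -0.997 for CENPJ and -1.27 for SGOL1, against -0.69 and -1.02 on the log2(FPKM + 1) scale. The count of members at -1 or below and the medians by role rest on that same scale.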
